A study of Helicoverpa armigera with 6 samples.

Results

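The transcripts described here were abundant in every control larval library of *Helicoverpa armigera*, the cotton bollworm, and at a small remainder of that level in every library made after HDAC3 knockdown. They were chosen by their measured values. A gene of the annotation was taken when its lowest siNC value was at least 100 FPKM, its mean siHDAC3 value was above 0, and the lowest siNC value stood at least 16-fold above the highest siHDAC3 value after 1 was added to both. In addition, the highest and lowest values within each group, again after adding 1, had to differ by less than 16-fold. FPKM is the number of sequenced fragments of a transcript divided by its length and by a divisor for the library, usually its size. Here the divisors differed from the numbers of fragments on genes, as given below. The rule found 56 of the 18203 genes in the table, and these 56 genes are called the members. RNA-seq was done on whole larvae, with 3 siHDAC3 libraries and 3 siNC libraries. Newly molted larvae of the last instar had been injected, in the siHDAC3 group with a small interfering RNA directed at *HDAC3*, and in the siNC group with a control RNA directed at a gene of *C. elegans*. The labels do not say how many larvae entered a library, or whether replicates came from separate larvae or rearings, so p-values measure the spread between these libraries, which may be technical.

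HDAC3 is a class I histone deacetylase. It removes acetyl groups from histone tails as part of the NCoR/SMRT corepressor complexes, and histone deacetylation at promoters is generally associated with lower transcription. A whole caterpillar contributes RNA from midgut, fat body, epidermis, muscle and other tissues, and transcripts made at very high levels in a single tissue can dominate such a library. In RNA from whole larvae, fewer cells of a type and less RNA per cell cannot be told apart. Gene names do not accompany the identifiers in the table, and 0 of the 56 members matched the RefSeq gene table, so members are given by identifier and position, without a role, and *HDAC3* itself and marker genes of tissues were not analyzed here.

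The siHDAC3 libraries held 10084667 to 10811323 fragments on genes, and the siNC libraries 11565408 to 12389053. The deposited values had been scaled between libraries by divisors of 11829400 to 16787200 in siHDAC3 and 7751250 to 9717220 in siNC, so that an equal number of fragments gave a lower FPKM in siHDAC3. A fragment on a transcript of 1 kilobase was worth 0.0596 to 0.0845 FPKM in siHDAC3 libraries and 0.103 to 0.129 FPKM in siNC libraries. Of the 11093 genes tested with limma on log2(FPKM + 1), 11.1% were called lower and 4.04% higher in siHDAC3 at an adjusted p under 0.05, and the median log2 change was -0.02. The number called lower was 1232. It was 707 without siHDAC3 replicate 3, and 561, 711 and 385 without siNC replicate 1, 2 and 3.

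A total of 726 annotated genes had at least 100 FPKM in every siNC library. Of these, 405 had all siHDAC3 values below all siNC values and 75 had all siHDAC3 values above. Over all tested genes, 2399 of 11093 (21.6%) had all siHDAC3 values below, and the share above was not counted. The 726 genes were chosen by a high lowest siNC value, which favours siHDAC3 values below it, so nothing is read from these counts. The step of 16-fold left 64 genes. HaOG200505 was removed because no siHDAC3 library held a fragment of it, and 7 more were removed by the limit on spread. The other 670 abundant genes serve for comparison below. Around the 16-fold step, the values formed no gap. HaOG212418 was just inside, at 16.4-fold, with 13.6, 28.2 and 20.7 FPKM in siHDAC3 against 477.9, 664.9 and 671.2 FPKM in siNC. HaOG214384 followed at 16.5-fold and HaOG211598 at 17-fold. Just outside were HaOG204377 and HaOG207953, both at 15.7-fold, and HaOG205510 at 15.4-fold. HaOG207953 had 22.9, 43.7 and 89.9 FPKM in siHDAC3 and 1782, 1491 and 1424 FPKM in siNC. The members thus form the far end of a continuous range. Without siNC replicate 2, which was often the lowest of its group, the rule found 95 genes, among them all 56.

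All 56 members passed the filter on low values of the test, 12 of them through siNC alone because no siHDAC3 library reached 0.5 FPKM. Other members with fewer than 3 siHDAC3 libraries at that level also needed siNC to pass. All 56 were called lower, beside 11.1% of all tested genes. The rule used the same contrast, so nothing is read from this count. Log2 changes ranged from -12.65 to -4.54 around a median of -8.30. The median member had 0.453, 1.39 and 0.512 FPKM in the siHDAC3 libraries and 1295, 582 and 797 FPKM in the siNC libraries. The other abundant genes had medians of 166.7, 210.1 and 185.5 FPKM in siHDAC3 and 337.6, 272.1 and 339.2 FPKM in siNC.

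**Figure D1:**
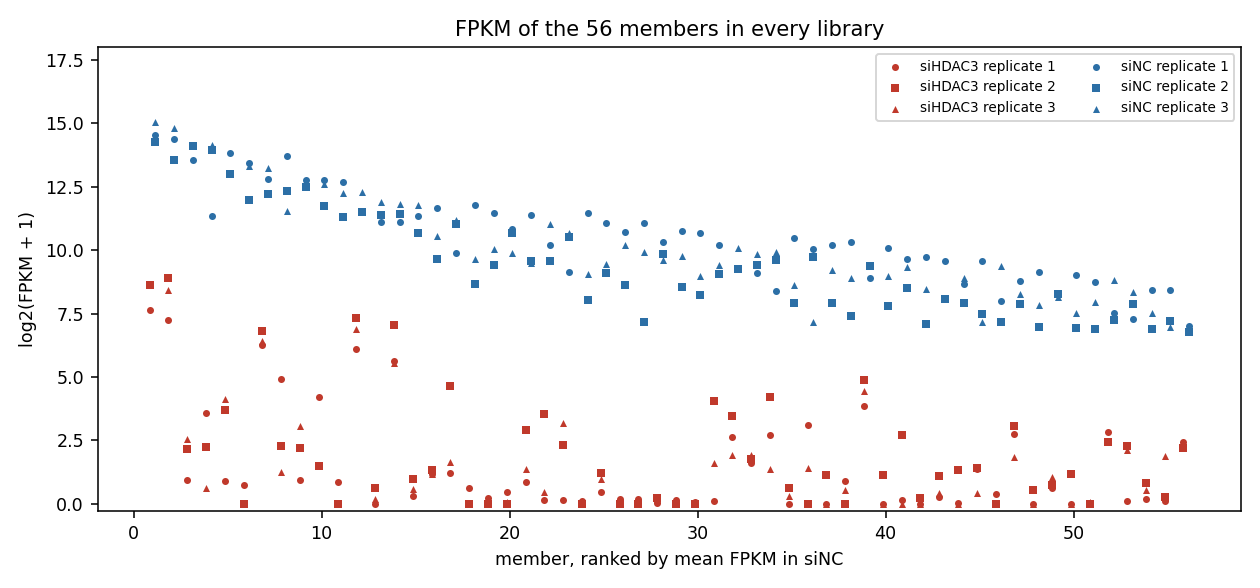
Each member is a column, ranked by its mean FPKM in siNC, and the vertical axis is log2(FPKM + 1). Red symbols are the 3 siHDAC3 libraries and blue symbols the 3 siNC libraries, with a symbol shape for each replicate. The siHDAC3 values lie below the siNC values in all 56 columns, and members with like siNC levels differ widely in siHDAC3.

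Together, the members took a large part of the control transcriptome. They held 0.142%, 0.234% and 0.210% of all fragments on genes in siHDAC3 replicates 1, 2 and 3, with 95% Wilson intervals of 0.140 to 0.145%, 0.231 to 0.236% and 0.208 to 0.213%. In siNC replicates 1, 2 and 3 they held 16.8%, 13.6% and 16.3%, with intervals of 16.7 to 16.8%, 13.6 to 13.6% and 16.2 to 16.3%. Such intervals cover counting error only. These shares are independent of the scaling between libraries. The other 670 abundant genes held 46.8 to 55% in siHDAC3 and 54.0 to 60.9% in siNC.

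**Figure D2:**
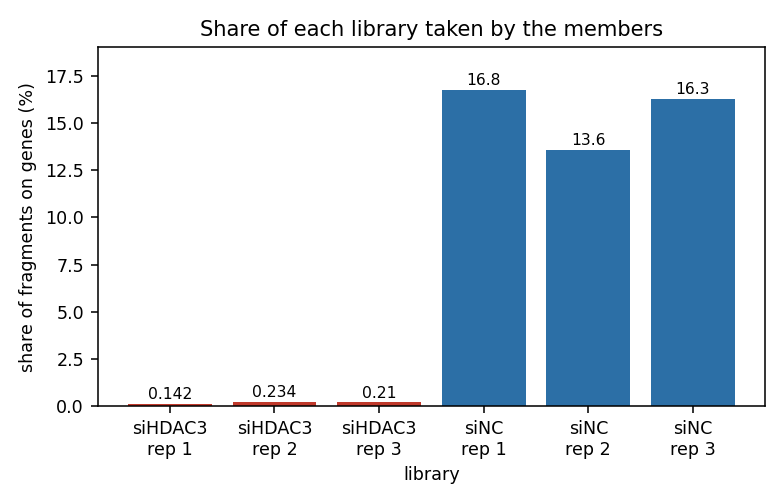
Bars give the percentage of all fragments on genes that came from the 56 members, for each of the 3 siHDAC3 libraries (red) and 3 siNC libraries (blue). The axis starts at 0, and the siHDAC3 bars, at 0.142 to 0.234%, are barely visible beside siNC bars of 13.6 to 16.8%.

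In control larvae, 5 of the 10 genes with the highest mean FPKM and 10 of the first 20 were members. A mean of at least 1000 FPKM in siNC was reached by 28 of 56 members and 159 of the other 670 abundant genes. The most abundant member was HaOG205172, the second gene of all in siNC and number 260 in siHDAC3 by mean FPKM. It lies on scaffold KZ149970.1 from 415522 to 417012 and its length of 1491 bases equals its span, so no intron is listed for it. It had 200.9, 398.8 and 395.9 FPKM in siHDAC3 and 24136, 19599 and 34425 FPKM in siNC, a log2 change of -6.32 with a standard error of 0.36. Its high remainder also makes it the member with the most FPKM in siHDAC3.

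HaOG209906, on scaffold KZ150119.1 from 136661 to 139242, had 150.4, 482.6 and 340.2 FPKM in siHDAC3 against 21559, 12150 and 28832 FPKM in siNC (log2 change -6.07, standard error 0.51). It ranked number 4 in siNC and 265 in siHDAC3. HaOG211162, on KZ149837.1 from 415397 to 417389, had 0.892, 3.48 and 4.93 FPKM in siHDAC3 against 12134, 17498 and 18292 FPKM in siNC. Similar siNC levels thus went with remainders of different size, since HaOG211162 ranked number 6 in siNC and 7458 in siHDAC3. HaOG208733, on KZ150082.1 from 228764 to 232899, had 0.878, 12.1 and 16.5 FPKM in siHDAC3 and 14545, 8319 and 8409 FPKM in siNC. HaOG204353 differed from these within siNC. It had 10.9, 3.73 and 0.539 FPKM in siHDAC3 against 2583, 15635 and 18300 FPKM in siNC, with siNC replicate 1 far below the other two.

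The largest change on this scale was that of HaOG200570, on KZ149821.1 from 811108 to 813481. It had 0.685, 0 and 0 FPKM in siHDAC3 and 11054, 4000 and 10141 FPKM in siNC (log2 change -12.65, standard error 0.45). HaOG211162 followed at -12.06 (standard error 0.45), then HaOG206364 at -11.80 (0.42), HaOG201905 at -11.22 (0.29) and HaOG204353 at -11.00 (0.99). HaOG206364, on KZ149818.1 from 1504488 to 1511480, resembled HaOG200570 in that only siHDAC3 replicate 1 held fragments. It had 0.817, 0 and 0 FPKM in siHDAC3 and 6611, 2565 and 4880 FPKM in siNC. HaOG206366, a member nearby on the opposite strand, had 0.359, 0 and 0.0557 FPKM in siHDAC3 and 1848, 1632 and 944 FPKM in siNC. The smallest change of all members was that of HaOG206821, on KZ150014.1 from 34342 to 49480, at -4.54 (standard error 0.21). It had 4.46, 3.56 and 4.08 FPKM in siHDAC3 and 128, 108 and 112 FPKM in siNC, so it was also the least abundant member in siNC.

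The members divide by how much was left. The mean siHDAC3 level was under 1 FPKM for 28 members, 1 to 10 FPKM for 21 and at least 10 FPKM for 7. These classes are ranges of a continuous level. Their median siNC means were 754, 793 and 7221 FPKM, and their median log2 changes were -8.87, -8.19 and -6.07. The 7 with most left were HaOG205172, HaOG209906, HaOG202381, HaOG208735, HaOG211598, HaOG212418 and HaOG205430. HaOG202381 had 67.0, 157.2 and 118.1 FPKM in siHDAC3 and 2909, 2919 and 5026 FPKM in siNC. In 6 of these 7, siHDAC3 replicate 2 was the highest of its group, HaOG205430 being the exception.

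At the other end, counting error limits the size of the change. In 23 members at least 1 siHDAC3 library held no fragment, and 8, 14 and 16 members had none in siHDAC3 replicates 1, 2 and 3, whereas every member had fragments in every siNC library. In 7 members the 3 siHDAC3 libraries together held 1 to 3 fragments. HaOG201361 had 1 fragment in siHDAC3 and 26114 in siNC. Its mean FPKM in siNC was 55167 times that in siHDAC3, with an exact Poisson interval of 9901 to 2178990 for the siHDAC3 fragments alone. HaOG205140, with 2 fragments in siHDAC3 and 60401 in siNC, had a ratio of siNC to siHDAC3 of 62889 (17410 to 519295). By contrast, 16 members had at least 10 fragments in each siHDAC3 library, and HaOG205172 had 20588 in the 3 libraries, with a ratio of siNC to siHDAC3 of 78.5 (77.4 to 79.6).

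Within siHDAC3, the highest value exceeded the lowest by a median factor of 1.92 in the members after adding 1, a step that narrows this factor at low levels. HaOG200262 came nearest to the limit of the rule. It had 0.0749, 15.6 and 2 FPKM in siHDAC3 and 1167, 537 and 676 FPKM in siNC. HaOG205791 had 1.32, 24.2 and 2.14 FPKM in siHDAC3 against 936, 2098 and 2307 FPKM in siNC, and HaOG205430 had 29.5, 3.84 and 1.40 FPKM in siHDAC3 against 13479, 5188 and 2996 FPKM in siNC. A different library was thus highest in HaOG205430 than in the other two. Replicate 2 was the highest siHDAC3 library in 30 of 56 members (53.6%) and in 54.2% of the other abundant genes as deposited, but in 44.6% and 26.0% with each library scaled to the same sum of FPKM.

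The siNC libraries differed more among themselves in the members than in other abundant genes. The ratio of the highest to the lowest siNC value had a median of 2.79 in the members and 1.42 in the other abundant genes, both after adding 1. No test was made of this or of the counts that follow, and the rule limited this ratio to under 16 in the members only. Replicate 1 was the highest siNC library in 35 of 56 members (62.5%) and in 31.8% of the other abundant genes. In 28 of 56 members (50%) siNC replicate 1 was at least 2 times siNC replicate 2, compared with 68 of 670 other abundant genes (10.1%). With each library scaled to the same sum of FPKM, these numbers were 24 members and 33 other abundant genes. The widest siNC values were those of HaOG200569, with 0.138, 0 and 0 FPKM in siHDAC3 and 2145, 144 and 977 FPKM in siNC. HaOG201361 had 0.0655, 0 and 0 FPKM in siHDAC3 and 2813, 263 and 535 FPKM in siNC. HaOG210208 had 0.537, 0 and 0 FPKM in siHDAC3 and 3545, 401 and 805 FPKM in siNC. All 3 had the same order of siNC libraries and fragments in siHDAC3 replicate 1 alone.

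The level left in siHDAC3 is given next by the order of the siNC libraries. The rule used both, since a member with a low siNC library could enter only with a lower siHDAC3 level, so the counts are a description and nothing is read from them. Of the 28 members in which siNC replicate 1 was at least 2 times siNC replicate 2, 21 had a mean siHDAC3 level under 1 FPKM. This was so for 5 of the 16 members with a smaller excess of siNC replicate 1, and for 2 of the 12 in which siNC replicate 1 was not above siNC replicate 2. The median mean siHDAC3 levels of these classes were 0.397, 4.01 and 4.54 FPKM, and their median mean siNC levels were 807, 1175 and 1504 FPKM. All members share the same 6 libraries, so they are not independent of each other.

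**Figure D3:**
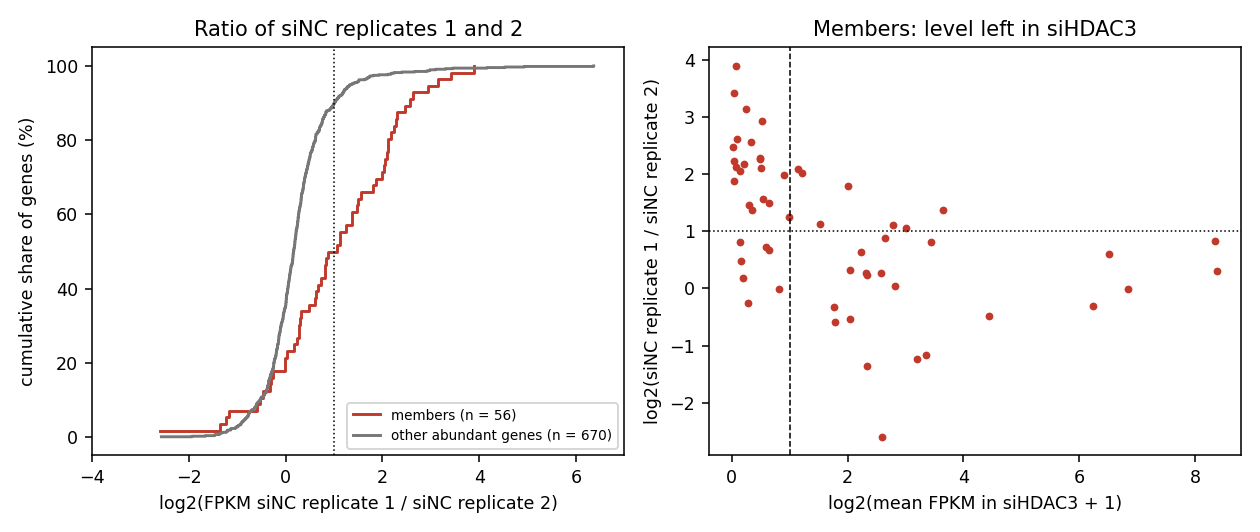
Left, the cumulative percentage of genes against the log2 ratio of FPKM in siNC replicate 1 to that in siNC replicate 2, for the 56 members (red) and the 670 other abundant genes (grey), with a dotted line at a ratio of 2. Right, the same ratio for each member against the log2 of its mean siHDAC3 FPKM plus 1, with a dashed line at 1 FPKM. The red curve lies to the right of the grey one over most of its range, and 21 of the 28 members at or above the dotted line of the right panel have less than 1 FPKM in siHDAC3.

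The members lie on 31 scaffolds. Coordinates are those of the table, for which no source used here names a genome build. Within 50000 bases of another member were 22 of 56 (39.3%), in 7 groups, and 41.6% of the other abundant genes lay as close to another gene of their own kind. Within 10000 bases these shares were 32.1% and 22.2%. The other abundant genes outnumber the members, 670 to 56, so these shares are not like for like. In 12 of 56 members the next annotated gene on a side was also a member, as it was another abundant gene for 122 of the 670. All 7 adjacent pairs of members were on the same strand.

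The largest group lies on scaffold KZ149808.1 from 2347125 to 2434998 and holds 6 members, all on the minus strand, HaOG201895, HaOG201900, HaOG201905, HaOG201906, HaOG201908 and HaOG201909. Their lengths are between 339 and 2282 bases. The group held 288 fragments in the 3 siHDAC3 libraries and 371123 in the 3 siNC libraries. HaOG201906 had 0.923, 3.64 and 7.39 FPKM in siHDAC3 and 7045, 5830 and 6864 FPKM in siNC. HaOG201905 had 0, 0.521 and 0.122 FPKM in siHDAC3 and 2234, 2667 and 3863 FPKM in siNC. In both, the siNC libraries stayed within a factor of 2 of each other, unlike HaOG201908, which had 1.23, 1.5 and 1.23 FPKM in siHDAC3 and 3282, 807 and 1510 FPKM in siNC. HaOG201909 had 0.235, 0.963 and 0.485 FPKM in siHDAC3 against 2580, 1615 and 3533 FPKM in siNC, and HaOG201895 had 0.216, 1.12 and 0.335 FPKM in siHDAC3 against 755, 268 and 279 FPKM in siNC. HaOG201900 had 0.103, 3.96 and 8.05 FPKM in siHDAC3 against 568, 1464 and 1652 FPKM in siNC. The order of the siNC libraries was thus not the same throughout the group, with replicate 1 lowest in HaOG201900 and HaOG201905, and highest in HaOG201895, HaOG201906 and HaOG201908. The 9 other annotated genes inside the group are all on the minus strand too. Of these, 6 were tested and 4 were called lower, beside 11.1% of all tested genes, and none of the 6 was called higher. Each of the 4 had fewer than 3 siHDAC3 libraries at 0.5 FPKM and passed the filter only with siNC, so these calls are a description. Among them, HaOG201897, HaOG201899 and HaOG201902 had siNC means of only 10.4, 3.50 and 5.97 FPKM. HaOG201898, which lies between members, had 128.4, 333.0 and 377.5 FPKM in siHDAC3 and 24.7, 207.1 and 90.4 FPKM in siNC. Its groups overlap, and it was not called (log2 change 1.69, standard error 0.80, limma adjusted p = 0.209).

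A group of 4 members lies on KZ149816.1 from 561958 to 620789, with 2 members on each strand. HaOG205428 had 17.5, 1.77 and 1.87 FPKM in siHDAC3 and 7056, 3381 and 6199 FPKM in siNC. HaOG205430, described above, is the member after the next annotated gene and is the shortest member at 198 bases. HaOG205426 had 0.370, 1.29 and 0.938 FPKM in siHDAC3 against 2177, 546 and 710 FPKM in siNC. HaOG205433, the least abundant of the group in siNC, had 6.13, 4.35 and 4.49 FPKM in siHDAC3 against 184, 153 and 450 FPKM in siNC. Of the 4 other annotated genes inside this group 2 were tested and 0 called in either direction. HaOG205425, which lies directly before the first member, had 73.4, 61.2 and 60.5 FPKM in siHDAC3 and 50.7, 34.6 and 41.5 FPKM in siNC, and was not called (limma adjusted p = 0.118).

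The group on KZ149837.1 from 392123 to 417389 consists of 3 members that follow each other on the minus strand with no other annotated gene between them. HaOG211160 had 2.03, 2.36 and 2.79 FPKM in siHDAC3 and 544, 681 and 924 FPKM in siNC. HaOG211161 had 0, 1.19 and 0 FPKM in siHDAC3 and 1080, 224 and 507 FPKM in siNC. With HaOG211162, at 12134 to 18292 FPKM in siNC, levels in this row of genes thus spanned more than an order of magnitude in siNC, while siHDAC3 levels stayed at 0 to 4.93 FPKM. Another 3 members, HaOG204186 to HaOG204188 on the plus strand, follow each other on KZ149947.1 from 540427 to 576087. HaOG204186 had 0.0309, 1.49 and 0 FPKM in siHDAC3 and 403, 243 and 475 FPKM in siNC. HaOG204188 had 0.106, 5.47 and 0 FPKM in siHDAC3 and 796, 364 and 642 FPKM in siNC. In both, siHDAC3 replicate 2 held most of what was left. HaOG204187 between them, 207 bases long, had 1 fragment in siHDAC3, from replicate 1, and 1809 in siNC.

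**Figure D4:**
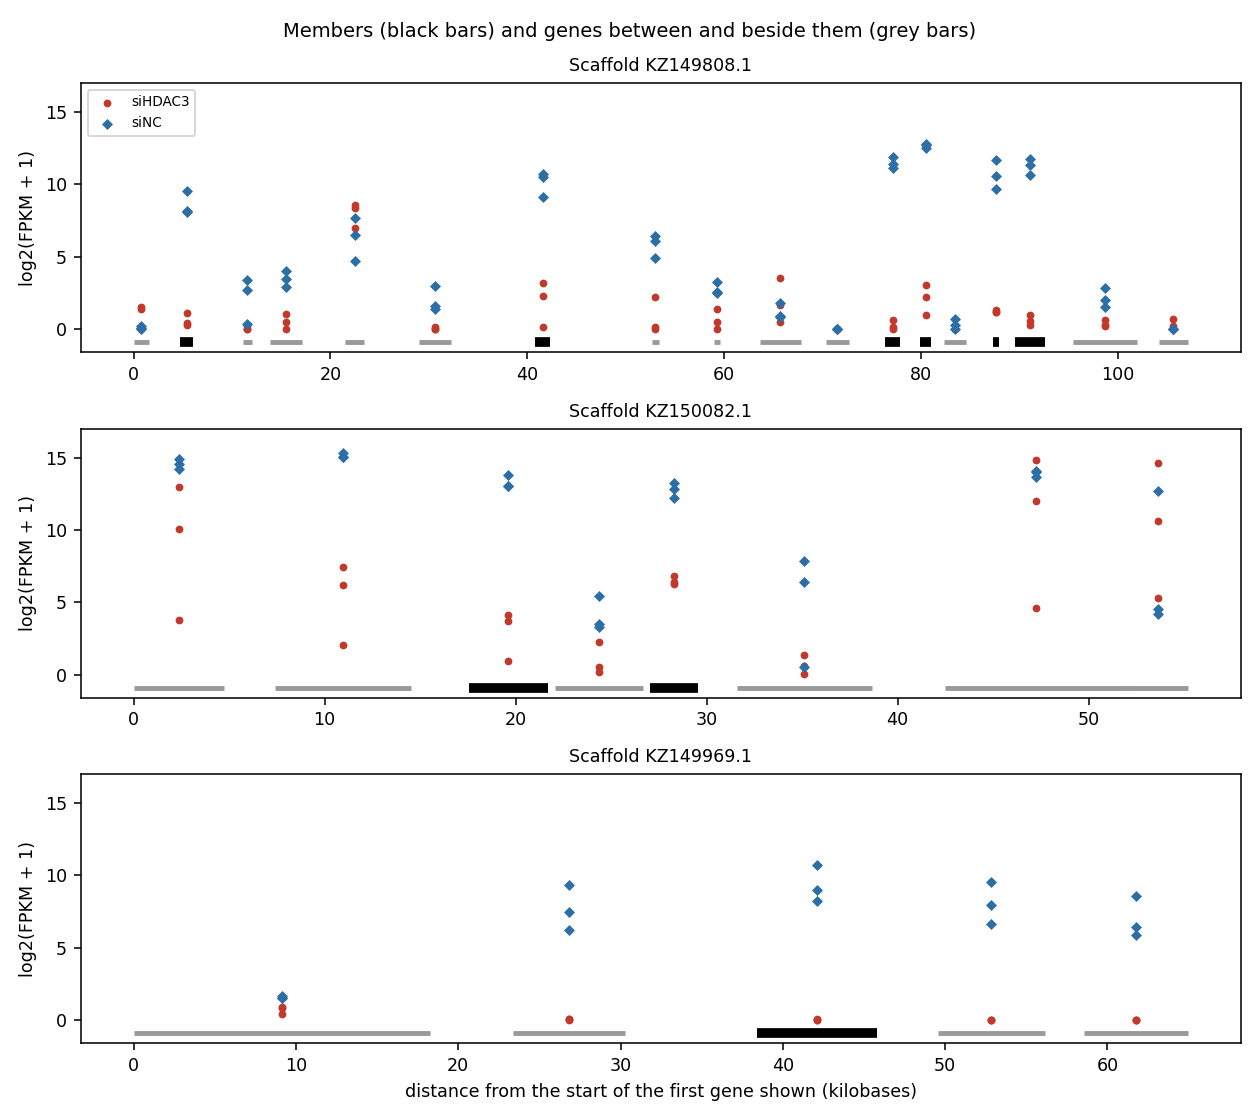
Each panel shows a stretch of a scaffold, with distance in kilobases from the start of the first gene shown, log2(FPKM + 1) on the vertical axis, and a point for each library at the middle of each gene (siHDAC3 red circles, siNC blue diamonds). Black bars below are members and grey bars other annotated genes. On KZ149808.1 the 6 members stand between genes of low level and HaOG201898, whose siHDAC3 points at 128.4 to 377.5 FPKM reach above its siNC points. On KZ150082.1 some genes beside the members have siHDAC3 points spread over several units, and on KZ149969.1 the member and 3 genes beside it have siHDAC3 points close to 0.

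The stretches on KZ150082.1 and KZ149969.1 were chosen after their values had been seen. On KZ150082.1 the member HaOG208733 lies next to HaOG208732, the gene with the highest siNC mean of all, and HaOG208734, called lower (limma adjusted p = 0.042), lies between HaOG208733 and the member HaOG208735. HaOG208734 passed the filter only with siNC, so its call is a description. HaOG208732 had 3.17, 72.5 and 173.3 FPKM in siHDAC3 and 34191, 34039 and 39786 FPKM in siNC, and missed the rule by its spread within siHDAC3 alone. HaOG208735 had 75.9, 111.4 and 84.1 FPKM in siHDAC3 and 7235, 4762 and 9801 FPKM in siNC. Beyond HaOG208735, HaOG208736 had 0.0409, 0.537 and 1.51 FPKM in siHDAC3 and 0.466, 234.6 and 82.6 FPKM in siNC, with overlapping groups, and was not called (limma adjusted p = 0.16). Genes farther out on either side varied widely in siHDAC3. HaOG208731 had 12.9, 8025 and 1061 FPKM in siHDAC3 and 19101, 24409 and 29971 FPKM in siNC, and HaOG208737 had 23.8, 28987 and 4069 FPKM in siHDAC3 and 13106, 16574 and 17335 FPKM in siNC. In both genes siHDAC3 replicate 1 was lowest and replicate 2 highest. Neither of these was called, with limma adjusted p = 0.128 for HaOG208731 and 0.373 for HaOG208737. HaOG208738, the last gene shown, had 38.6, 25296 and 1591 FPKM in siHDAC3 and 6750, 22.5 and 17.3 FPKM in siNC. Its fitted change was positive (log2 change 3.03, standard error 3.03), its groups overlap, and it was not called (limma adjusted p = 0.541).

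On KZ149969.1 the member HaOG205140 is part of a row of 4 plus-strand genes, HaOG205139 to HaOG205142, with lengths of 3042, 3045, 2856 and 2886 bases. HaOG205140 had 0.0391, 0 and 0 FPKM in siHDAC3 and 1655, 297 and 508 FPKM in siNC. HaOG205139 had 0.0587, 0 and 0.0455 FPKM in siHDAC3 against 652, 75.9 and 173 FPKM in siNC (limma adjusted p = 0.00161). HaOG205141 had 0.0209, 0 and 0 FPKM in siHDAC3 against 759, 98.9 and 245 FPKM in siNC (limma adjusted p = 0.00111). HaOG205142 had 0, 0.0293 and 0 FPKM in siHDAC3 against 390, 57.9 and 84.2 FPKM in siNC (limma adjusted p = 0.00183). All 4 had siNC replicate 1 highest and replicate 2 lowest, and 3 of them missed the rule because a siNC library lay under 100 FPKM. No siHDAC3 library of these 3 reached 0.5 FPKM. They passed the filter through siNC alone, so their calls are a description. HaOG205138, which lies before this row on the same strand, had 0.321, 0.797 and 0.863 FPKM in siHDAC3 and 1.87, 1.84 and 2.20 FPKM in siNC and was not called (limma adjusted p = 0.068). Whether these genes share reads was not tested.

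Genes beside the members were then examined, because their values were not used to choose the members, except that a gene passing the rule could not count as a neighbour. The next annotated gene on either side of each member, where it was not itself a member, gave 90 neighbours. Of these 55 were tested, and 22 (40.0%) were called lower in siHDAC3, compared with 11.1% of all tested genes. The filter on low values admitted 8 of the 55 through siNC alone, with no siHDAC3 library at 0.5 FPKM, and 6 of these 8 were among the 22. Such genes were 14.5% of the tested neighbours and 3.99% of all tested genes. Among the 22, only HaOG208732, HaOG200263, HaOG202382, HaOG215844, HaOG205131, HaOG207617, HaOG211597 and HaOG207457 had at least 0.5 FPKM in every siHDAC3 library. All others of the 22, such as HaOG205448 and HaOG201901, needed siNC to pass. Calls among the 22 thus rest mostly on genes that entered through the group where they are high. The share of such genes over all tested genes was not counted, so nothing is read from 40.0% beside 11.1%. Without the filter, 20 of 77 neighbours (26.0%) were called lower, beside 6.46% of all genes. Of the genes beside the other abundant genes, leaving out members and abundant genes, 78 of 873 (8.93%) were called lower. None of the 55 neighbours was called higher, beside 4.04% of all tested genes. At an unadjusted limma p under 0.05, 26 neighbours were lower and 2 higher. The shares over all tested genes at that limit were not counted, so nothing is read from these 2 numbers. Limma voom called 16 of 55 neighbours (29.1%) lower, beside 8.92% of all tested genes. It called 0 neighbours higher, beside 322 of 11093 tested genes. With each library scaled to the same sum of FPKM, 17 of 52 neighbours were called lower and 3 higher (5.77%), beside 8.27% of all tested genes lower and 25.9% higher in that scaling. The median log2 change of the 55 neighbours was -1.58. In 5 of them no siHDAC3 library held a fragment, and with these at the bound that 3 fragments over the group allow, the median was -1.65. In 26 of the 55 tested neighbours (47.3%) all siHDAC3 values were below all siNC values, beside 21.6% of all tested genes.

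The neighbours were not only abundant genes. Among neighbours whose lowest siNC value was under 100 FPKM, 18 of 50 (36.0%) were called lower, compared with 9.53% of all tested annotated genes of that kind. The median log2 changes were -1.02 for these neighbours and 0.01 for those genes. Among the 41 tested neighbours within 10000 bases of a member, 20 (48.8%) were called lower, beside 11.1% of all tested genes. These include HaOG211597 and HaOG205131, which overlap members, so their reads may be mixed with those of the members. The share among genes as near to other abundant genes was not counted. The share was 40.0% both beside members that had another member within 50000 bases (6 of 15) and beside members that had none (16 of 40). The number of neighbours called lower depended on single libraries, at 12 of 54 without siHDAC3 replicate 3, and 10 of 45, 12 of 44 and 9 of 44 without siNC replicates 1, 2 and 3. The share of all genes called lower declined in these fits as well, and the share among neighbours was 2.98 to 5.52 times that among all tested genes in all fits made. The limit of the filter given above holds for the shares in this paragraph too, so they are a description. Neighbours of members in a group share that group, so the 55 genes are not independent.

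**Figure D5:**
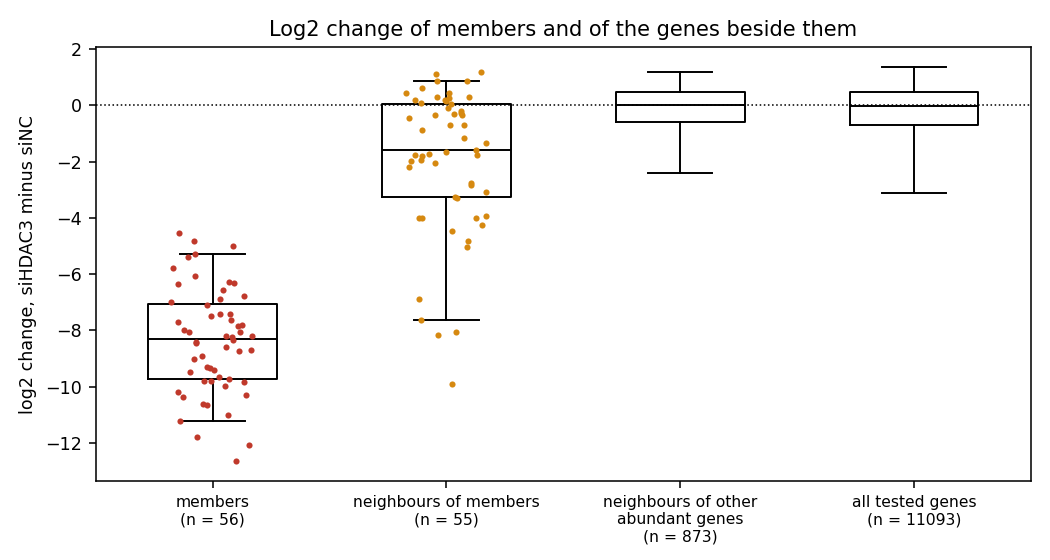
Log2 change (siHDAC3 minus siNC, on log2(FPKM + 1)) of the 56 members, their 55 tested neighbours, the 873 tested neighbours of other abundant genes and all 11093 tested genes. Boxes give the quartiles with the median, whiskers the 5th and 95th percentiles, and points single genes. The members, chosen by this change, lie at -4.54 or lower, and the neighbours have a median of -1.58 beside -0.01 for neighbours of other abundant genes and -0.02 for all tested genes. The 873 genes leave out abundant genes, whereas the 55 neighbours include 5 of them. The 50 neighbours with a lowest siNC value under 100 FPKM have a median of -1.02.

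The largest changes among neighbours were those of HaOG208732 (log2 change -9.90, standard error 1.28), whose values are given above, and HaOG208269 (-8.17, standard error 1.29). HaOG208269 lies on KZ150067.1 from 257843 to 271210, beside the longest member, HaOG208268 of 4599 bases. It had 0.0353, 36.4 and 0.588 FPKM in siHDAC3 and 966, 1026 and 1470 FPKM in siNC, and without siNC replicate 3 it was not called (limma adjusted p = 0.0552). Both genes met the rule in all but the spread within siHDAC3, so their calls are a description. HaOG208268 itself had 0.0130, 0.184 and 0.151 FPKM in siHDAC3 against 1295, 930 and 788 FPKM in siNC. HaOG202382, beside HaOG202381, had 218, 205 and 205 FPKM in siHDAC3 and 1867, 1605 and 2937 FPKM in siNC (log2 change -3.30, standard error 0.27, limma adjusted p = 0.000908). Its siHDAC3 libraries lay close together, and its groups did not overlap.

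The neighbours with the largest positive values were HaOG205034 and HaOG205792. HaOG205034 had 14.9, 8.36 and 15.5 FPKM in siHDAC3 and 4.16, 6.09 and 4.62 FPKM in siNC (log2 change 1.19, standard error 0.32, limma adjusted p = 0.0535). HaOG205792 had 18.9, 3.72 and 9.88 FPKM in siHDAC3 and 3.17, 3.44 and 4.31 FPKM in siNC (log2 change 1.12, standard error 0.53, limma adjusted p = 0.205). The groups did not overlap in the first gene and overlapped in the second. Without siHDAC3 replicate 2 both were called, with limma adjusted p = 0.0314 for HaOG205034 and 0.0407 for HaOG205792. HaOG205034 was also called with a pseudocount of 0.1 and under both other scalings that raise the median of all genes.

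Length was not used by the rule. The members were 198 to 4599 bases long with a median of 1073, and the other abundant genes had a median of 1007 and all annotated genes 1347. The second longest member was HaOG207174, with 4161 bases and 5.13, 10.1 and 2.76 FPKM in siHDAC3 against 634, 618 and 1081 FPKM in siNC. In 4 of 56 members and 63 of 670 other abundant genes the length equaled the span. Members overlapped other annotated genes in 2 cases. HaOG211598, with 48.5, 130.3 and 45.7 FPKM in siHDAC3 and 2224, 2737 and 3603 FPKM in siNC, overlaps HaOG211597 and HaOG211599 on the opposite strand, and HaOG205130 lies within HaOG205131 on the same strand. No source used here says whether strand was used in counting, so reads of overlapping genes may be mixed in these values. Within 10000 bases of members lay 6 unannotated transcripts, of which 3 were tested. None was called by limma, beside 5.10% of all tested unannotated transcripts called lower, and 1 had an unadjusted p under 0.05. A tested one overlaps HaOG211598 on the same strand. The untested one beside HaOG214384 had 0, 0 and 0 FPKM in siHDAC3 and 174, 121 and 0.414 FPKM in siNC. The untested ones beside HaOG201909 and HaOG205433 had values above 0 in siHDAC3 only.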

How the data were processed

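The authors deposited FPKM values per gene for 6 whole-larva libraries, with gene length and position. Columns headed siHA5 and CK were taken as siHDAC3 and siNC because the series has only these groups. The submitters' notes name Bowtie 0.12.2 and the mouse builds mm8 and mm9. For this moth, the aligner, counter and build are not given in sources used here. Multiplying FPKM by length gave whole fragments for 100% of values (tolerance 0.1), so fragments and divisors were recovered. Genes with at least 0.5 FPKM in 3 libraries were fitted as log2(FPKM + 1), with a pseudocount of 1, in limma 3.58.1 (R 4.3.3), using a variance trend and adjusting p by Benjamini-Hochberg over all 11093 genes. This scale understates changes of low genes. Alternatives were other pseudocounts, filters, scalings, limma voom on fragments, a replicate block, libraries left out, and other limits in the rule. The members and lists were chosen with earlier results of these data known. Named were the members highest in siNC or siHDAC3, with the largest fall, nearest the 16-fold limit, most variable, longest, shortest or in the 3 largest groups, and the neighbours with the largest changes; others were chosen after their values were seen. Figures used matplotlib 3.10.9. 1 of 18203 identifiers matched RefSeq (ASM3070526v1).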

Additional observations from a re-analysis of the deposited data

How the results depend on the processing

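Genes called lower in siHDAC3 numbered 1232, and 385 to 1091 with 1 library left out. Genes called higher numbered 448, but 2881 with each library scaled to the same sum of FPKM and 936 with quantile normalization, and 100 to 376 with 1 library left out. By construction these scalings raised the median change over all genes to 0.68 and 0.25 (log2), so that 75.8% and 47.8% of called genes were higher, compared with 26.7% in the deposited scaling. The neighbours called lower numbered 22, and 9 to 17 with 1 library left out. With the replicate number as a block, 177 genes were higher and 853 lower, and 17 neighbours were lower. Deviations of same-numbered libraries from their group means had correlations of -0.08, 0.07 and -0.01, and those of differently numbered libraries ranged from -0.17 to 0.16. With so few libraries, this cannot tell whether the numbers pair them.

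The rule found 56 members, 57 to 95 with 1 library left out, and 111 without siHDAC3 replicate 2 and siNC replicate 2, an alternative chosen after seeing the data. Scaling to the same sum left 46 members, all among the 56, and a pseudocount of 0.1 in the rule gave 47, of which 46 were shared. All 56 members were called lower in each fit that tested them, except HaOG200569 in limma voom (adjusted p = 0.066). Without siNC replicate 1, 2 or 3, 44 passed the filter each time and 44 were called. Over the fits, 3.71 to 11.5% of all tested genes were called lower. The rule used the same contrast, so nothing is read from the calls of members. Of 520 alternative values of named genes, 513 kept their direction and side of the threshold, 2 lost the call, 5 gained it and 0 reversed. The named genes are mostly members and were picked by these same values, so nothing is read from these counts. Low siHDAC3 counts, 1 to 3 fragments in 7 members, limit the size of those changes.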
